A study of Mus musculus with 10 samples.

Results

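The genes described here encode enzymes of glucose breakdown and of the mitochondrial respiratory machinery: Pkm, Pgk1, G6pdx, Pdha1, Idh3a, Idh3g, Sdhd, Cox5a, Cox7b and Ndufa1. They were taken by name from the rows whose gene could be inferred, and the brightest row stood for a gene. Of the 10 genes, 9 had a row, among 2721 genes so placed in a table of 41345 rows. No ID in that table carried G6pdx, glucose-6-phosphate dehydrogenase of the pentose phosphate pathway, as its only symbol, so that gene was not analysed here. RNA was measured on 10 single-colour arrays, 5 with Jam2+ and 5 with Jam2- cells, all haematopoietic stem cells (HSCs). All cells were Lineage-, c-kit+, Sca-I+, CD48- and CD150+, and came from 5 wildtype male C57BL/6 SJL mice with no treatment named; the groups differed in whether Jam2, a junctional adhesion molecule, was on the cell surface. Arrays were numbered 1, 2, 4, 5 and 6 in each group. The labels do not tie a number to a mouse, so p-values measure the spread between these arrays, which may in part be technical. The number of arrays limits the precision.

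Glycolysis turns glucose into pyruvate in the cytosol, with Pgk1 and Pkm at its ATP-yielding steps. Pyruvate dehydrogenase, of which Pdha1 is a subunit, makes acetyl-CoA from pyruvate in mitochondria, and the tricarboxylic acid (TCA) cycle oxidises it through enzymes such as isocitrate dehydrogenase and succinate dehydrogenase. The electrons then pass along the respiratory complexes to oxygen. Quiescent HSCs are known for leaning on glycolysis and keeping mitochondrial respiration low.

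Short stretches of DNA are shown because they mark features the genes had beyond their function: Sdhd and Idh3g each start back to back with another measured gene, and Pgk1 is a textbook target of hypoxia-inducible factors. The sequences are RefSeq's, of build GRCm38.p6, written 5′ to 3′ on the strand of the named gene. The stretch between the starts of Sdhd and Timm8b, which runs the opposite way, was 51 bases long, at chr9:50603850-50603900 (minus strand). The stretch between Idh3g and Ssr4 was 125 bases long, at chrX:73786898-73787022 (minus strand). Both begin on the side of the neighbour, Timm8b or Ssr4, so their last base adjoins the start of Sdhd or Idh3g. Capitals in these 2 mark CCGGAAG or its reverse complement, a sequence bound by ETS factors. The Pgk1 stretch is the 250 bases before its start, at chrX:106186850-106187099 (plus strand), and capitals mark ACGTG or its reverse complement, the core of the hypoxia response element.
Sdhd to Timm8b: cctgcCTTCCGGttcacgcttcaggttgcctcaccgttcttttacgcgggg
Idh3g to Ssr4: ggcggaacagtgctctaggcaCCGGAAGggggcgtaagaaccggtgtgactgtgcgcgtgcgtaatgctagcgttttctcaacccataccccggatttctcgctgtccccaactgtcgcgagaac
Pgk1: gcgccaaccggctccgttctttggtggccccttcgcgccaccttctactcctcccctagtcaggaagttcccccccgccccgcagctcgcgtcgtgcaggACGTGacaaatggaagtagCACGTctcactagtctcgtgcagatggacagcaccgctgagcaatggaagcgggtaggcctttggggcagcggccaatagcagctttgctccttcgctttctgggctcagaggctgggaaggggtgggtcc

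Of the 10 genes, 9 had an entry among 32851 promoters; Idh3a had none. Each promoter was searched on both strands over the 250 bases before the start. CCGGAAG was found for Idh3g and Sdhd, and in 6.91% of all promoters. ACGTG, which also forms part of the longer CACGTG, was found for 5 of the 9 (Cox5a, Idh3g, Ndufa1, Pgk1 and Pkm) and in 16.6% of all promoters, and Pgk1 held 2 matches. GCGCA and GCGC with any base between them, a sequence bound by the respiratory gene regulator NRF1, was found for Sdhd, beginning 79 bases before its start, and in 3.74% of all promoters. A match is a description of the letters and not a binding site.

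Gene names in the value table are displaced from their values, so every identity here is inferred: the last 5562 IDs were given the values of the first 5562 rows in order. With this placement, 20 ribosomal protein genes had a median log2 value of 11.60 and 140 olfactory and vomeronasal receptor genes one of 3.63. Those families served to find the offset, so 3 further readings were taken. The 9 subunit genes of the mitochondrial genome that had a row lay between 8.75 and 13.34, with a median of 12.34, while the 75 rows of other genes around them had a median of 6.37. Xist, which coats the silenced X chromosome of females, had 4.61, and the Y-linked genes Kdm5d, Eif2s3y and Uty had 7.69, 8.85 and 7.95; the mice were male. Across 232 pairs of placed rows with the same symbol, Pearson's r of the row means was 0.792; the rows it runs over are not independent. Moving all rows by 1 to 20 further places either way gave 0.0992 to 0.490. The metabolic genes, each by its brightest row, had their lowest value on any array at 7.81, above the highest receptor mean of 7.69.

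**Figure D1:**
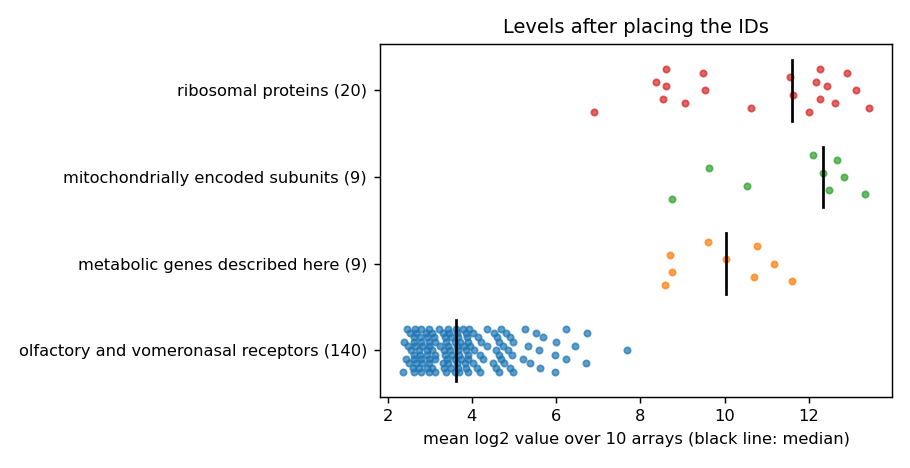
Mean log2 value over the 10 arrays (x axis) for 4 gene families after the IDs were placed, 1 point per gene with the median as a black line. All 9 metabolic genes lie to the right of the receptor genes, whose highest mean was 7.69.

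The cell identity could be checked only in part. Of 12 HSC markers listed, Esam and Robo4 were among the placed genes, at group means of 8.15 and 9.61 in Jam2+ and 8.32 and 9.54 in Jam2- HSCs; Jam2 itself was not. The 5 T cell markers measured had array means of 5.43 to 5.74 over both groups. Among them Thy1 had 6.73 to 7.15 and the others at most 5.96, where array medians were 5.96 to 6.05. Btk, the only B cell marker measured, had 8.42 to 9.15, and the mean of the erythroid markers Gata1 and Epor was 7.01 to 7.38. Of the macrophage and monocyte markers, Cx3cr1 had 6.63 to 7.24 and Ccr2 4.32 to 4.67. No megakaryocyte marker was measured. What these levels say about other cell types in the samples was not tested. Neutrophil markers were higher on average in Jam2- HSCs, though 0 of 5 passed in limma (adjusted p = 1.00 for each): the mean of the 5 measured of 13 (Camp, Ngp, Ltf, Cybb and Mmp8) was 5.09 to 5.20 on Jam2+ arrays and 5.28 to 6.99 on Jam2- arrays, highest on Jam2- arrays 5 and 2. Camp, a granule peptide precursor, had 4.13 to 4.77 on Jam2+ arrays and reached 7.88 on Jam2- array 2. Jam2- array 6 was near the Jam2+ arrays for these genes, with Camp at 4.85 and Ltf at 5.14. In such bulk RNA, more cells of a type and more RNA per cell cannot be told apart, and the part of these transcripts in the other results was not tested. Jam2+ array 1 and Jam2- array 6 stood apart from the other arrays, with mean r over all rows of 0.970 and 0.968, against 0.976 to 0.980; results are also given without both.

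Between Jam2+ and Jam2- HSCs, no metabolic gene passed the test. Means were lower in Jam2+ HSCs for 8 of the 9, with the most negative differences for Idh3a, Sdhd and Pdha1, which act at the entry to the TCA cycle or within it. Idh3g, of the same TCA cycle enzyme as Idh3a, had one of the smallest differences on the log2 scale, 0.021. The others were those of Cox5a and Cox7b, subunits of cytochrome c oxidase, at -0.017 and -0.0087. In limma with Benjamini-Hochberg adjustment over all 41345 rows, 0 of the 9 had an adjusted p under 0.05, and the adjusted p was 1.00 for each of them; 0% of the 2721 placed genes passed. At an unadjusted p under 0.05 there were 3 of the 9 (Idh3a, Sdhd and Pdha1), all with a lower Jam2+ mean. Cox7b entered these counts by its brighter row. Its dimmer row, which lies in genome order, had a higher Jam2+ mean and an unadjusted p of 0.0334 in limma. The background at that unadjusted threshold was 4.23% of placed genes in either direction and 1.87% with a lower Jam2+ mean. A lower Jam2+ mean was found for 48.0% of placed genes. Among the 426 placed genes with a mean at least as high as the lowest of the 9, that share was 54.0%, and 4.46% had an unadjusted p under 0.05, 3.52% with a lower Jam2+ mean. The median difference was -0.10 over the 9 genes and 0.0068 over all placed genes. Without both arrays that stood apart, 8 of the 9 still had a lower Jam2+ mean and the median was -0.11.

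**Figure D2:**
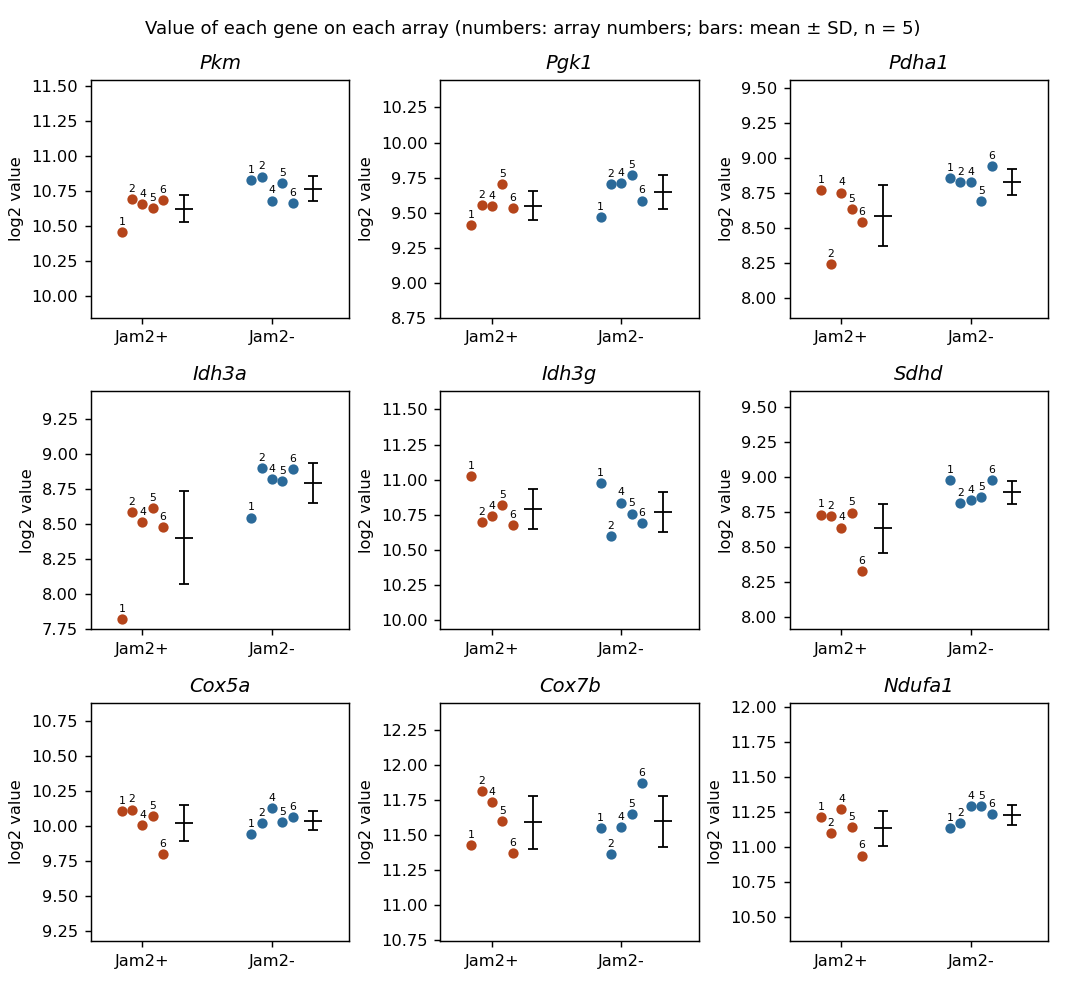
Log2 value (y axis, spanning the same number of log2 units in every panel) of each of the 9 genes on each array, Jam2+ in orange and Jam2- in blue, with array numbers beside the points and the mean ± SD (n = 5) as bars. The groups do not overlap for Sdhd, and Jam2+ array 1 lies far below the others for Idh3a at 7.81.

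Pgk1, phosphoglycerate kinase, had 9.41, 9.55, 9.54, 9.70 and 9.53 on Jam2+ arrays 1, 2, 4, 5 and 6, and 9.47, 9.70, 9.71, 9.77 and 9.59 on the Jam2- arrays in the same order. The groups overlapped over most of their range, and array 1 was the lowest in both. The difference, Jam2+ minus Jam2-, was -0.10 with a standard error of 0.084 and a 95% interval of -0.28 to 0.086. Without Jam2+ array 1 it was -0.064.

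Pkm, pyruvate kinase, whose product is pyruvate, had 10.46, 10.69, 10.65, 10.62 and 10.69 on the Jam2+ arrays and 10.83, 10.85, 10.68, 10.80 and 10.66 on the Jam2- arrays. Jam2- arrays 1, 2 and 5 lay above all Jam2+ arrays, while Jam2- arrays 4 and 6 lay among them. The group means were 10.62 ± 0.096 (SD, n = 5) and 10.77 ± 0.087 (SD, n = 5), a difference of -0.14 (SE 0.075). The unadjusted p was 0.0838 in limma and 0.0476 in a two-sided exact permutation test with 252 possible splits of the arrays.

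Pdha1, the catalytic alpha subunit of pyruvate dehydrogenase, had 8.77, 8.24, 8.75, 8.64 and 8.54 on the Jam2+ arrays and 8.86, 8.83, 8.83, 8.69 and 8.94 on the Jam2- arrays. Jam2- array 5 lay below Jam2+ arrays 1 and 4, and the other Jam2- arrays lay above every Jam2+ array. The difference was -0.24 (SE 0.11), a Jam2+ to Jam2- ratio of 0.846 (95% interval 0.719 to 0.997). Jam2+ array 2 was the lowest; without it the difference was -0.15.

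Isocitrate dehydrogenase of the TCA cycle uses NAD and is built from alpha, beta and gamma subunits. Its catalytic subunit gene Idh3a had 7.81, 8.58, 8.51, 8.61 and 8.48 on the Jam2+ arrays and 8.54, 8.89, 8.82, 8.80 and 8.89 on the Jam2- arrays. Array 1 was the lowest in both groups, and Jam2- array 1 was the only Jam2- array within the Jam2+ range. The means were 8.40 ± 0.33 (SD, n = 5) and 8.79 ± 0.14 (SD, n = 5), a difference of -0.39 (SE 0.15). This corresponds to a ratio of 0.764 (95% interval 0.606 to 0.962). The unadjusted p was 0.0264 in limma and 0.0238 in the exact permutation test. Without Jam2+ array 1 the difference was -0.24, and without both arrays that stood apart it was -0.22.

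Idh3g, the regulatory gamma subunit of the same enzyme, had 11.02, 10.70, 10.74, 10.82 and 10.67 on the Jam2+ arrays and 10.97, 10.59, 10.83, 10.76 and 10.69 on the Jam2- arrays. The groups covered the same range, and array 1 was the highest in both, where Idh3a was at its lowest. The difference was 0.021 (SE 0.096, 95% interval -0.19 to 0.23); its sign turned when array medians were equalised. Ssr4, which encodes a subunit of the signal sequence receptor and starts back to back with Idh3g, differed by 0.0082 (SE 0.091).

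Sdhd anchors succinate dehydrogenase, at once a TCA cycle enzyme and respiratory complex II, in the inner mitochondrial membrane. It had 8.73, 8.72, 8.64, 8.75 and 8.33 on the Jam2+ arrays and 8.98, 8.81, 8.84, 8.86 and 8.98 on the Jam2- arrays. Every Jam2+ array lay below every Jam2- array, the only gene of the 9 of which this held; groups free of overlap were found for 0.992% of placed genes in either direction and for 0.331% with Jam2+ lower. The nearest arrays, Jam2+ 5 and Jam2- 2, were 8.75 and 8.81. The difference was -0.26 (SE 0.094), a ratio of 0.836 (95% interval 0.724 to 0.965). The unadjusted p was 0.0191 in limma and 0.00794 in the exact permutation test, the smallest that test can give. Without Jam2+ array 6 the difference was -0.18, and without both arrays that stood apart it was -0.26. Timm8b, a chaperone gene of mitochondrial protein import that starts 51 bases from Sdhd on the other strand, averaged 9.32 ± 0.16 (SD, n = 5) on the Jam2+ arrays and 9.35 ± 0.12 (SD, n = 5) on the Jam2- arrays, which differ by -0.035 (SE 0.096). Whether the differences of the 2 neighbours were unequal was not tested.

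Ndufa1, an accessory subunit of complex I, which takes electrons from NADH, had 11.22, 11.10, 11.27, 11.15 and 10.94 on the Jam2+ arrays and 11.14, 11.17, 11.29, 11.30 and 11.24 on the Jam2- arrays. The groups overlapped, with Jam2+ array 6 lowest. The difference was -0.092 (SE 0.079, 95% interval -0.27 to 0.084), and -0.043 without Jam2+ array 6.

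Cox5a, a nuclear-encoded subunit of cytochrome c oxidase (complex IV), had 10.11, 10.12, 10.01, 10.07 and 9.80 on the Jam2+ arrays and 9.94, 10.02, 10.13, 10.03 and 10.06 on the Jam2- arrays. The 4 Jam2+ arrays other than array 6 lay within the Jam2- range. The difference was -0.017 (SE 0.080, 95% interval -0.19 to 0.16).

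Cox7b, another small subunit of complex IV, had 2 rows, and they differed in level and in direction. The brighter, which stands for the gene, had 11.43, 11.82, 11.74, 11.60 and 11.37 on the Jam2+ arrays and 11.55, 11.36, 11.56, 11.65 and 11.87 on the Jam2- arrays. Its groups covered nearly the same range, and the difference was -0.0087 (SE 0.12). The dimmer row had 7.19, 7.09, 7.41, 7.07 and 6.79 on the Jam2+ arrays and 6.47, 6.85, 6.76, 7.13 and 6.56 on the Jam2- arrays. There the difference was 0.35 (SE 0.14), and the limma adjusted p was 1.00. The dimmer row lay 3 rows from that of Pgk1, a neighbour of Cox7b in the genome, and the brighter one 2072 rows away, so the dimmer row is the one in genome order. Which of the rows measures the Cox7b transcript was not tested.

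**Figure D3:**
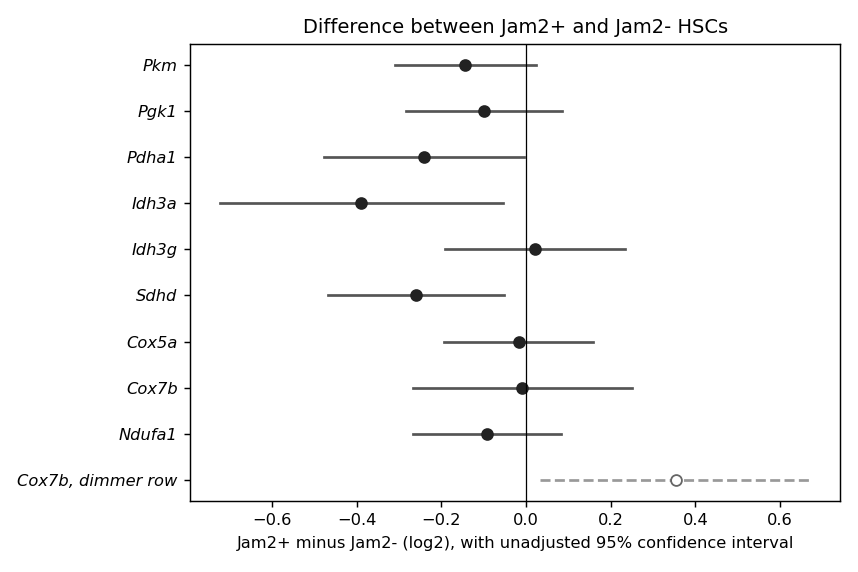
Difference between the group means, Jam2+ minus Jam2- on the log2 scale (x axis), for each gene (y axis), with its unadjusted 95% confidence interval from limma. The intervals of Pdha1, Idh3a and Sdhd lie below 0 and that of the dimmer Cox7b row (open circle) above it; none passed after adjustment.

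The arrays differed in which genes were low. Jam2+ array 6 lay below the gene's own mean for all 9 genes, though with a deviation of only -0.0079 for Pkm. That array was the lowest for Sdhd, Cox5a and Ndufa1, with an average deviation of -0.18. Jam2+ array 1 was the lowest for Pkm, Pgk1 and Idh3a and the highest for Idh3g, with an average deviation of -0.11. Jam2- array 6 had the highest average deviation, 0.11, and was the highest array for Pdha1, Sdhd and Cox7b. The other Jam2+ arrays averaged -0.047 to 0.0016 and the other Jam2- arrays 0.033 to 0.083. Jam2- arrays 2 and 5, where neutrophil markers were highest, averaged 0.033 and 0.079, where the Jam2- arrays with lower levels of those markers averaged 0.037 to 0.11.

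The mitochondrial genome encodes core subunits of the same complexes, and 9 of its 13 protein genes had a row with that symbol alone. This list was added after the values were seen. Jam2+ means were higher for 8 of the 9, where 52.0% of placed genes had a higher Jam2+ mean, and 0 passed in limma or had an unadjusted p under 0.05. These genes moved together on some arrays, so the count does not rest on independent genes. On Jam2- array 2, all but ND6 lay below their own means. The median difference was 0.060; it was 0.11 without Jam2+ array 6 or without Jam2- array 6, 0.040 without Jam2- array 2 and 0.037 with array medians equalised. ND5, a core subunit of complex I, averaged 12.17 ± 0.15 (SD, n = 5) on the Jam2+ arrays and 12.05 ± 0.096 (SD, n = 5) on the Jam2- arrays, which differ by 0.12 (SE 0.088). COX1, the catalytic subunit of complex IV, differed by 0.037 (SE 0.069), and CYTB of complex III by 0.091 (SE 0.087). ND6 differed by -0.14 (SE 0.17). Jam2+ array 1 had the highest average deviation of these genes, 0.13, while its average over the 9 nuclear genes was -0.11. The lowest averages, both -0.15, were on Jam2- arrays 2 and 5, the arrays with the highest neutrophil markers; the other Jam2- arrays lay at 0.0025 to 0.12. The part of neutrophil transcripts in this difference was not tested. The count of higher means was 8 of 9 without both arrays that stood apart. It was 7 without Jam2+ array 1, 4 or 5 or Jam2- array 2, with array weights, and with array medians equalised.

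**Figure D4:**
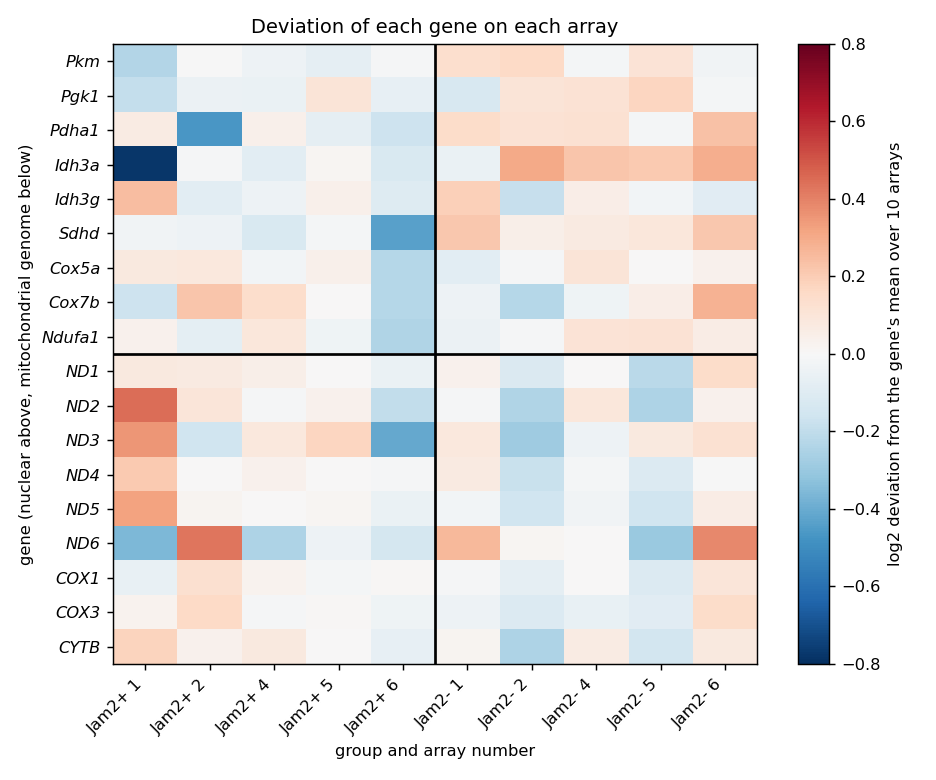
Deviation of each gene (rows; 9 nuclear genes above the line, 9 genes of the mitochondrial genome below) from its own mean over 10 arrays, on each array (columns), in log2 units by colour. Jam2+ array 6 is below 0 for all 9 nuclear genes, though only at -0.0079 for Pkm. Jam2+ array 1 has the deepest blue, at Idh3a.

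The other genes of these pathways that had a placed row numbered 42 of the 278 listed, and 0 passed in limma in either direction, while 2 had an unadjusted p under 0.05. Jam2+ means were lower for 23 and higher for 19, with a median difference of -0.016 against 0.0068 over all placed genes. Of the genes named below, Pfkfb4, Tktl1, Suclg2, Me1, Ndufaf3, Ndufb11, Slc25a53 and Car12 had group means under 7.69, the highest receptor mean. Their levels thus do not show that the genes were expressed. Tktl1, Suclg2, Car12, Ndufb11 and Me1 had Jam2+ means of 4.81, 5.03, 5.62, 5.85 and 5.90, where array medians were 5.96 to 6.05. In glycolysis, Gapdh, which encodes glyceraldehyde-3-phosphate dehydrogenase, differed by 0.11 (SE 0.17) and Pfkfb4, an enzyme that sets the level of a phosphofructokinase activator, by 0.079 (SE 0.098). Among 3 pentose phosphate genes, Prps2, which makes phosphoribosyl pyrophosphate, differed by -0.15 (SE 0.079) and the transketolase-like gene Tktl1 by 0.074 (SE 0.097).

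Around pyruvate dehydrogenase, Dlat, its acetyltransferase subunit, differed by -0.059 (SE 0.097), and Pdk3, a kinase that switches the enzyme off, by 0.058 (SE 0.10). In the TCA list, Suclg2, a subunit of succinyl-CoA ligase, differed by -0.14 (SE 0.18) and Me1, the cytosolic malic enzyme, by -0.052 (SE 0.18). The 5 other complex I genes had a median of -0.051; Ndufaf3, an assembly factor, differed by 0.15 (SE 0.084) and the subunit gene Ndufb11 by -0.11 (SE 0.17). None of these differences passed in limma.

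In complex III, Uqcrc1, a core subunit, differed by -0.14 (SE 0.071) and Uqcrb by 0.012 (SE 0.081). The unadjusted p of Uqcrc1 was 0.0705 in limma and 0.0159 in the exact permutation test, the smallest exact p of the 42 genes. The exact test was not run over all placed genes. Cox7a2 of complex IV differed by 0.034 (SE 0.069), and Atp5l, a subunit of ATP synthase, by -0.0034 (SE 0.075). The 19 genes of mitochondrial carriers and import had differences of -0.31 to 0.25 with a median of -0.029. The lowest was Slc25a20, the carnitine-acylcarnitine carrier that brings fatty acids into mitochondria. It averaged 8.53 ± 0.22 (SD, n = 5) on the Jam2+ arrays and 8.84 ± 0.14 (SD, n = 5) on the Jam2- arrays. Its unadjusted p was 0.0222 in limma and 0.0238 in the exact permutation test. Slc25a53, a carrier-family gene, had the highest difference of that list, 0.25 (SE 0.16). Among 3 hypoxia response genes, Higd1a, a mitochondrial protein gene induced by hypoxia, differed by -0.20 (SE 0.088) and Car12, a carbonic anhydrase, by 0.063 (SE 0.078). The unadjusted p of Higd1a was 0.0464 in limma and 0.0317 in the exact permutation test. For 8 of the 42 genes, among them Gapdh, Uqcrb and the channel gene Vdac3, the row lay past the rows that run in genome order or among rows of another chromosome. The brighter Cox7b row also lay past them. Whether near-identical gene copies share the signal of such rows was not tested.

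**Figure D5:**
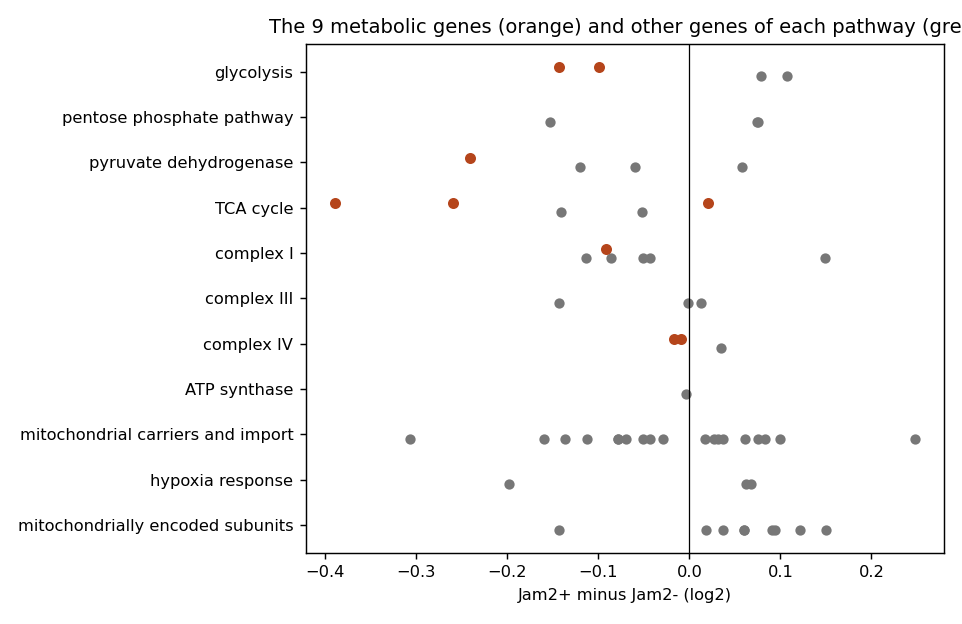
Difference between group means, Jam2+ minus Jam2- on the log2 scale (x axis), for the 9 metabolic genes (orange) and the other placed genes (grey) of each pathway list (y axis). The lowest orange points are Idh3a (-0.39) and Sdhd (-0.26), and the grey points spread from -0.31 to 0.25 around a median of -0.016.

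Among placed genes with at least 0.5 times the spread of the gene in question, the pattern over the 10 arrays most like that of Idh3a was found for Wdr82 and Dkc1, whose deviations from their own means differed from those of Idh3a by 0.092 log2 units per array on average for each. Pdha1 was nearest to Usp38 (0.053) and Kank2 (0.076), and Sdhd to Lhfpl1 (0.080) and Ddx3x (0.083). These were the nearest of 1569, 2475 and 2547 candidate genes, all measured on the same 10 arrays.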

How the data were processed

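The arrays were processed by the submitters with the R package oligo, per the submitters' processing notes; the sources used here do not state its version or how background and normalization were handled. Values were deposited as log2, 1 per row and array, and array medians were 5.96 to 6.05. No other per-sample values were used. Gene symbols came from the platform's annotation table: of the 5562 placed IDs, 2872 had 1 symbol, 397 several and 2293 none, and 2713 of the 2721 placed symbols were in RefSeq's gene table of GRCm38.p6.

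All rows entered 1 limma fit (lmFit, eBayes) of Jam2+ against Jam2- with no covariate, followed by Benjamini-Hochberg adjustment at 0.05. An unadjusted two-sided exact permutation test, which splits the arrays without regard to any pairing, was added for single genes. Intervals are 95%. The procedure was tested on simulated data with planted differences larger than any seen for the 9 genes. Whether it could call differences of the size seen here was not tested. Genes named were the 9 found, the 2 with the smallest p in each pathway list (all in lists under 3), the cell type markers, and the 2 genes nearest in pattern to each of the 3 most variable genes. Genes and lists were chosen with earlier results of these data known. The labels state no pairing, so the numbers were not taken as pairs in the main fit. Same-numbered arrays correlated in their deviations at -0.020 to 0.114, which cannot show whether they came from the same mouse. limma was version 3.58.1 under R 4.3.3; tables and plots were made in Python 3.11.15 (pandas 2.3.3, numpy 2.4.6, matplotlib 3.10.9).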

Additional observations from a re-analysis of the deposited data

Results flagged for a closer look

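The most extreme array of each group of 5 was compared with its nearest neighbour, relative to the group's range. This was done for 36 groups (18 genes in 2 groups). In them 7 arrays lay unusually far out, where a rate of 1 in 20 gives about 1.8. The rate was not counted over all placed genes, and genes that move together on an array are not independent. The count is therefore not a result about these genes. Of the metabolic genes, Pkm on Jam2+ array 1 had 10.46 against 10.62 on the nearest array, and Idh3a on the same array had 7.81 against 8.48. Idh3a on Jam2- array 1 had 8.54 against 8.80, and Sdhd on Jam2+ array 6 had 8.33 against 8.64. Of the genes of the mitochondrial genome, ND4 and ND5 on Jam2+ array 1 had 13.05 and 12.43 against 12.88 and 12.13, and COX3 on Jam2- array 6 had 12.64 against 12.45. Jam2+ array 1 thus accounted for 4 of the 7, low for 2 nuclear genes and high for 2 mitochondrial ones; it and Jam2- array 6 are the arrays that stood apart over all rows.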

How the results depend on the processing

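Under 20 alternatives, 0 placed genes and 0 of the metabolic genes passed; the smallest adjusted p of any placed gene ran from 0.0598 (fit on placed genes only) to 1.00. Adding a block for the replicate number left 0 genes past the threshold, with a lower Jam2+ mean for 8 of the 9, and Idh3a and Sdhd had an unadjusted p under 0.05. Same-numbered arrays correlated best with each other for 4 of 10 arrays, and the block changed no call. With the block the standard error of Idh3a fell from 0.15 to 0.099. It also fell for Pgk1 and Idh3g, and it rose for the other metabolic genes. Lower Jam2+ means numbered 6 to 9 over all alternatives, 6 without Jam2+ array 6. With 1 array left out, 1 to 2 genes did not overlap between the groups (Idh3a besides Sdhd without Jam2- array 1, Pdha1 besides Sdhd without Jam2- array 5). For Idh3a and Pdha1, the array left out was the only Jam2- array within the Jam2+ range. In the same runs, 1 to 3 genes had an unadjusted p under 0.05 (only Sdhd without Jam2- array 2 or 6). Groups with fewer arrays separate more easily. The shares of placed genes free of overlap or under that unadjusted p were not counted in the alternatives. With rows as deposited, which pairs the names with other rows, 0 did not overlap, 1 had an unadjusted p under 0.05, and the differences were 0.12 for Idh3a, 0.42 for Cox5a, 0.074 for Ndufa1 and -0.0066 for Idh3g.

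Small differences changed sign. Idh3g was -0.016 with array weights, -0.0024 with equal array medians and -0.058 without both arrays that stood apart. Cox7b was 0.019 with array weights, 0.0064 after quantile normalization, 0.17 as the mean of its rows and 0.099 without both those arrays. With 1 array left out, Idh3g ran from -0.038 to 0.072, Cox5a from -0.041 to 0.038 and Cox7b from -0.067 to 0.059. The run with rows as deposited reads other rows, so a direction kept or lost there does not bear on these genes. In every other alternative run, Pkm, Pgk1, Pdha1, Idh3a, Sdhd and Ndufa1 kept their direction, and Sdhd ran from -0.29 to -0.18. The run without both arrays and the counts of lower means, of groups without overlap and of unadjusted p were added after the data were seen. Equal medians and quantile normalization moved the median difference of placed genes from 0.0068 to -0.016 and -0.0053.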
